A study of Rattus norvegicus with 12 samples.

Results

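Messenger RNA of 8 genes of cholesterol synthesis and its control was measured in the lumbar mammary gland of young Wistar rats. The genes were Srebf2, Insig1, Hmgcs1, Idi1, Fdps, Fdft1, Sqle and Cyp51, taken by name from the annotation of the array. They made up 8 of the 26456 gene symbols and 9 of the 30367 gene probes on the array, since Fdps had 2 probes. All 9 probes were well above background on all 12 arrays, so no member was lost to the filter on dim probes. No receptor for lipoprotein uptake was among the 8 genes. The rats were female offspring of dams that ate a diet with 17.0% protein (NP) or 8.8% protein (LP) during pregnancy. Litters were cut to 6 females at birth, the mothers of both groups had standard chow in lactation, and the pups suckled until they were weaned to the same chow at day 21. Glands were taken at day 21, when pups were weaned, and at day 28, from 3 NP and 3 LP rats each, although the sample description calls the animals taken at these days dams. Visible lymph nodes were removed, and the frozen tissue held the fat pad together with the epithelium.

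Cells make cholesterol from acetyl-CoA through mevalonate, farnesyl diphosphate, squalene and lanosterol. When sterols in the endoplasmic reticulum run low, the transcription factor encoded by Srebf2 is carried to the Golgi, cut free and sent to the nucleus, where it switches on genes of nearly every step of the route; Insig proteins hold it back when sterols are plentiful. In the mammary gland, cholesterol serves the membranes of growing ducts, is stored in the adipocytes of the fat pad and, in lactation, enters the membrane around milk fat.

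Each array carried RNA of 1 rat labelled with a single dye. Signals are log2 values of the scanner's processed intensity minus the log2 of the 75th percentile of the array's gene spots, so that 0 is the level of that percentile. Between 74.8% and 79.6% of gene spots on an array were well above background, and each group had 3 arrays. Each day had a slide of its own, so day and slide cannot be told apart, whereas the diets shared a slide. On either slide the NP arrays and 1 LP array (4a or 4f) lay in the upper row and the other LP arrays in the lower row. The tissue label was checked against marker genes. All 6 adipocyte markers were well above background on every array, with a mean of 2.01 to 2.64 and Fabp4 or Adipoq as the brightest, and so were all 6 luminal epithelial markers, with Krt18 as the brightest. The milk protein gene Csn2 was too dim to be tested. LP array 6a of day 21 stood apart, with a median correlation of 0.960 with the other arrays and a mean of -3.23 over 6 leukocyte markers, against 0.53 to 1.33 on the other 11 arrays. In whole tissue, fewer cells of a type and less RNA per cell cannot be told apart.

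At day 21, when the litters were weaned, the comparison asked whether protein supply before birth went with a different level of these genes in the offspring. Enzymes on the way from isopentenyl diphosphate to sterols had higher mean signals in LP than in NP rats, by 0.09 (Fdft1) to 0.42 (Sqle) on the log2 scale. Both regulators and Hmgcs1 (0.05) lay close to 0. Fdft1 was hardly apart from Hmgcs1, so the values do not divide the route by step. The LP arrays were all above the NP arrays for 5 of 8 members, Idi1, Fdps, Fdft1, Sqle and Cyp51, where 5.59% of the 20197 tested genes had such a pattern. For 0 of 8 members were all LP arrays below the NP arrays (6.03% of genes). No member passed limma's test: an adjusted p under 0.05 was found for 0 of 8 (0% of genes), and an unadjusted p under 0.05 for 0 of 8 (4.34% of genes). Mean differences were above 0 for 7 of 8 members and for 52.4% of tested genes. The median difference was 0.16 over the members and 0.01 over all tested genes.

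The signal of Srebf2, which encodes the transcription factor SREBP-2, was 0.56, 0.64 and 0.37 in the NP rats of day 21 and 0.72, 0.56 and 0.36 in the LP rats. These ranges lay on top of each other, and the LP minus NP difference was 0.02 (SE 0.16). Insig1, which encodes the protein that holds SREBP in the endoplasmic reticulum and is itself a target of it, gave 2.73, 2.11 and 3.02 in NP rats and 2.34, 2.86 and 2.44 in LP rats. The LP values lay inside the range of the NP values, with a difference of -0.07 (SE 0.35). The sign of both regulators rested on single arrays. Without NP array 6a the difference was -0.05 for Srebf2 and 0.13 for Insig1, and without LP array 4a it was -0.06 and 0.03.

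Among the enzymes, Hmgcs1, the cytosolic synthase that makes HMG-CoA, was at 2.75, 2.72 and 3.00 in NP rats and at 2.88, 2.90 and 2.83 in LP rats. The LP values lay between the NP values, and the means differed by 0.05 (SE 0.20). Idi1, the isomerase that turns isopentenyl diphosphate into dimethylallyl diphosphate, was at -0.02, -0.25 and -0.10 in NP rats and at 0.27, 0.27 and 0.20 in LP rats. Every LP rat was above every NP rat, and the gap of 0.22 between the groups was the widest among the 8 members. On average Idi1 was 0.37 higher in LP rats (SE 0.18, 95% interval -0.03 to 0.76), a fold of 1.29. Limma gave it an adjusted p of 0.861, with 3 of 3 LP arrays above all NP arrays. Fdps, which joins isoprene units into farnesyl diphosphate, was at 1.01, 1.04 and 1.17 in NP rats and at 1.51, 1.58 and 1.23 in LP rats. The LP arrays were again all above the NP arrays, LP array 7c by only 0.06. The difference was 0.37 (SE 0.25, 95% interval -0.19 to 0.92), and the other Fdps probe gave 0.38.

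Fdft1, the squalene synthase that commits farnesyl diphosphate to sterols, was at 1.91, 1.82 and 1.85 in NP rats and at 2.01, 1.93 and 1.93 in LP rats. The groups did not overlap, but they were only 0.013 apart and the means differed by 0.09 (SE 0.11). Sqle, the oxidase that turns squalene into its epoxide, a rate-limiting step, was at -0.07, -0.07 and -0.29 in NP rats and at 0.50, 0.35 and -0.00039 in LP rats. LP arrays 4a and 6a were clearly high, while LP array 7c was just above the NP arrays. Its mean difference of 0.42 (SE 0.26, 95% interval -0.15 to 0.99) was the largest among the members, with an adjusted p of 0.861 in limma and 3 of 3 LP arrays above all NP arrays. Cyp51, which takes a methyl group off lanosterol, was at -0.68, -0.90 and -0.80 in NP rats and at -0.48, -0.53 and -0.68 in LP rats. The lowest LP array and the highest NP array differed by 0.00070, and the means by 0.23 (SE 0.22).

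The count of 5 members without overlap was 5 or 6 when an array of the day was left out, but smaller groups separate more often, and the share of genes then was 8.32% to 13.4%. Without LP array 6a it was 5 (8.32% of genes), and it was 3 (4.59% of genes) in the authors' deposited table. Markers of other cells had mean differences between the diets too, and 0 of them had an adjusted p under 0.05 in limma. Leukocyte markers were lower in LP rats for 6 of 6 genes, with 3 of 6 without overlap (6.03% of genes). Their median difference of -1.94 includes the low LP array 6a. Of the skeletal muscle markers 0 of 5 had a higher mean (median -1.79), which leaned on LP array 4a. The mean of these markers was -4.41 on that array and 3.43 and -0.25 on LP arrays 6a and 7c. On the NP arrays it was 0.86, -0.42 and 2.93. Epithelial markers had mean differences in the same direction as the members. Means were higher in LP rats for 6 of 6 luminal markers. Their median difference of 0.76 includes LP array 6a, the highest of all arrays for these markers. The summed signal of these markers, in multiples of the 75th percentile, was 13.0, 24.8 and 13.0 in the NP rats of day 21 and 28.8, 46.1 and 16.6 in the LP rats. NP array 5a was above LP array 7c, so these groups overlapped, and no marker of the list was at background. Over the 12 arrays the mean of the luminal markers and the mean of the 8 members, each centred on its own mean, had r = 0.39, and the means of the basal epithelial and milk secretion markers had r = 0.50 and r = 0.45 with the members. These r were not computed without the arrays 4f of day 28, the ends of the members' mean. The part of the epithelial share in the difference of the members was not tested.

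**Figure D1:**
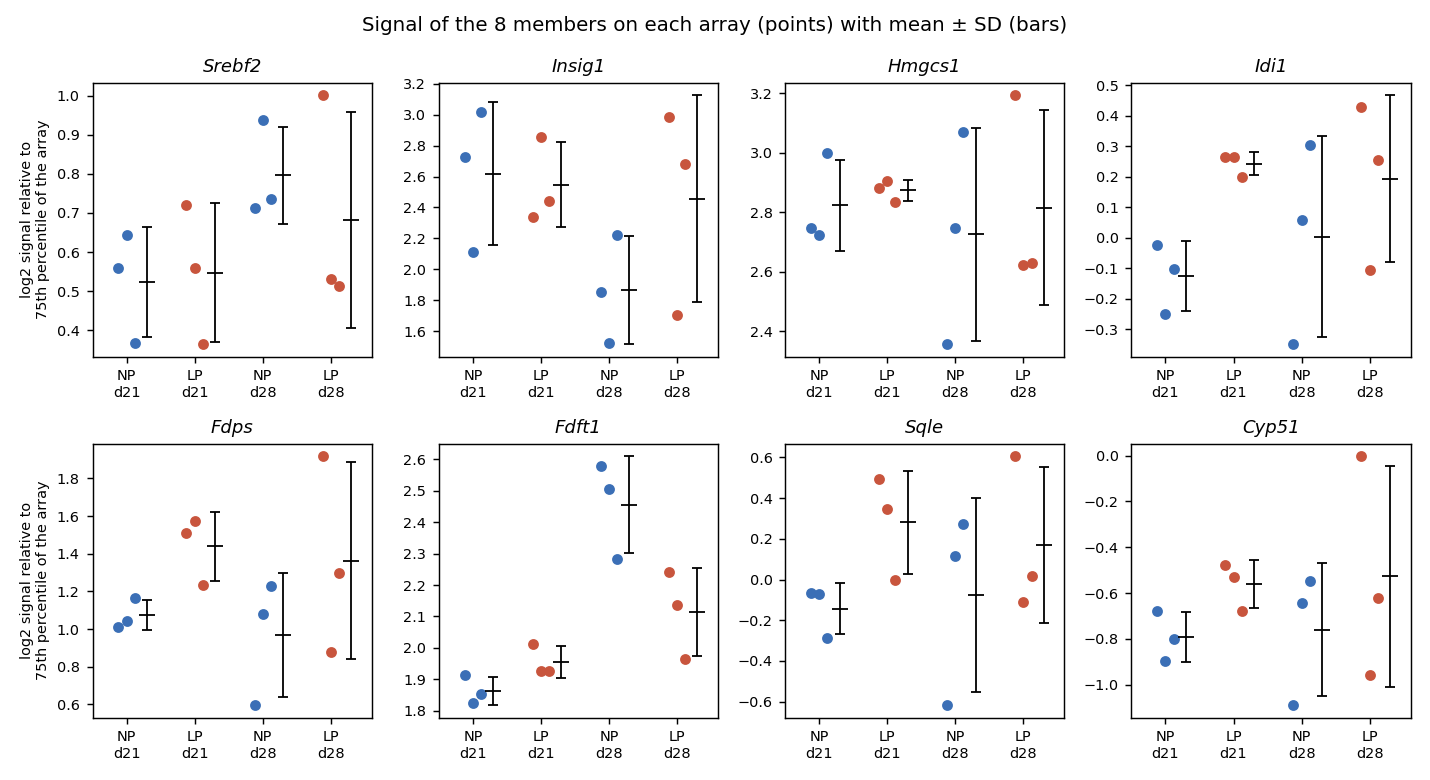
Signal of each of the 8 genes on every array, as log2 signal minus that of the array's 75th percentile (vertical axis), by diet group and day (horizontal axis); points are rats and bars are the mean with SD of 3 rats. At day 21 the LP points of Idi1 (0.20 to 0.27) all lie above the NP points (-0.25 to -0.02), and at day 28 the LP points of Fdft1 (1.96 to 2.24) all lie below the NP points (2.28 to 2.58).

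At day 28, after a week on solid food, the members no longer separated the groups in the same direction. Fdft1 was lower in all LP rats than in any NP rat, and the other members overlapped between the diets. So 0 of 8 members were higher without overlap (4.42% of genes) and 1 of 8 was lower without overlap (12.3% of genes). By limma's adjusted p, 0 of 8 members passed (0% of genes), and 1 of 8, Fdft1, was below 0.05 before adjustment (7.95% of genes). Mean differences were above 0 for 6 of 8 members, against 42.6% of all tested genes, and the median was 0.21 over the members and -0.05 over all tested genes. That median rested on arrays 4f: it was -0.01 without NP array 4f and -0.00035 without LP array 4f, with 4 of 8 members above 0 in either case. Without LP array 6f it was 0.36 and without NP array 6f 0.34.

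Fdft1 was at 2.58, 2.50 and 2.28 in the NP rats of day 28 and at 2.24, 2.13 and 1.96 in the LP rats. The highest LP array lay 0.04 below the lowest NP array. The mean difference was -0.34 (SE 0.11, 95% interval -0.58 to -0.10), or 1.27-fold lower in LP rats. Its adjusted p in limma was 0.581, with 3 of 3 LP arrays below all NP arrays. With limma's normexp background the difference was -0.12 and 0 members were lower without overlap (7.21% of genes), and without LP array 4f there were 2 (18.7% of genes).

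The regulator Insig1 had the largest mean difference of the day, with 1.85, 1.52 and 2.22 in NP rats and 2.99, 1.71 and 2.68 in LP rats. LP arrays 4f and 7f were above every NP array, and LP array 6f was among the NP arrays. The difference was 0.59 (SE 0.35, 95% interval -0.18 to 1.37), with an adjusted p of 0.582 in limma and 2 of 3 LP arrays above all NP arrays. It was 0.97 without LP array 6f and 0.33 without LP array 4f. Srebf2 was at 0.71, 0.94 and 0.74 in NP rats and at 1.0, 0.53 and 0.51 in LP rats. LP array 4f was the highest of the day and the other LP arrays the lowest, with a mean difference of -0.11 (SE 0.16). Its sign turned with the replicate number as a block (0.04).

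For the remaining enzymes the diets overlapped, and the same arrays held the ends of the range. Fdps was at 0.60, 1.08 and 1.23 in NP rats and at 1.92, 0.88 and 1.30 in LP rats. Sqle was at -0.62, 0.12 and 0.27 in NP rats and at 0.61, -0.11 and 0.02 in LP rats. In both genes NP array 4f was the lowest and LP array 4f the highest of all 12 arrays, and LP array 6f was lower than NP arrays 5f and 6f. Cyp51 had the same order at its ends, with -1.09, -0.64 and -0.55 in NP rats and -0.0028, -0.96 and -0.62 in LP rats. Idi1 was at -0.35, 0.06 and 0.30 in NP rats and at 0.43, -0.11 and 0.26 in LP rats. Hmgcs1 was at 2.36, 2.75 and 3.07 in NP rats and at 3.19, 2.62 and 2.63 in LP rats. For these genes too the extremes were NP array 4f and LP array 4f, and both diets spanned most of the range.

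The LP minus NP differences of these enzymes at day 28 were 0.40 for Fdps (0.28 for its other probe), 0.25 for Sqle, 0.23 for Cyp51, 0.19 for Idi1 and 0.09 for Hmgcs1. Leaving out NP array 4f gave -0.02 for Sqle, 0.01 for Idi1 and -0.09 for Hmgcs1, and leaving out LP array 4f gave 0.12 for Fdps, -0.03 for Cyp51 and -0.10 for Hmgcs1. Without LP array 6f, 2 of 8 members were higher in LP rats without overlap (9.67% of genes). At this day 4 of 6 leukocyte markers were lower without overlap in LP rats (12.3% of genes). Higher without overlap were 3 of 6 luminal and 2 of 5 basal epithelial markers (4.42% of genes). In limma 0 of these markers had a p under 0.05, before or after adjustment. Other markers set some of the same arrays apart. On NP array 4f the mean of the 5 proliferation markers was -2.52, against -0.66 to 0.07 on the other 11 arrays. It was also the lowest for the means of the basal (-2.81 against -1.71 to 0.35) and luminal epithelial markers (0.10 against 0.19 to 2.26). On LP array 6f the summed signal of the 5 skeletal muscle markers was 54.9, with Mylpf as the brightest, against 0.634 and 1.14 on LP arrays 4f and 7f, where Tnnt3 was the brightest and 4 of 5 markers were above background, and 2.01 to 6.26 on the NP arrays of the day. LP array 6f stood apart only within its day, since LP array 6a of day 21 had 67.9 and NP array 6a 45.2. The part of these markers in the members' values was not tested.

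From day 21 to day 28, with the diets averaged, the signal of Fdft1 rose and the other 7 members did not pass the test. By limma's adjusted p, 1 of 8 members passed the threshold of 0.05, as did 1.84% of tested genes (371 genes, 421 probes), and 1 of 8 was below 0.05 before adjustment (19.0% of genes). In 0 of 8 members were all day 28 arrays above (1.85% of genes) or below (1.79% of genes) all day 21 arrays. Means were higher at day 28 for 4 of 8 members (53.9% of genes) and lower for 4, with a median difference of 0.01 over the members and 0.02 over all tested genes. Of the markers, 0 of 5 for proliferation (median -0.61) and 0 of 5 for skeletal muscle (-1.47) were higher at day 28. For liver it was 6 of 6 (0.67) and for leukocytes 5 of 6 (0.90). The liver markers were dim, with means of -6.03 to -2.58 and 3 to 6 of 6 well above background on an array. The low NP array 4f is included for proliferation and the low LP array 6a for leukocytes. In limma 0 of these markers had an adjusted p under 0.05, and their part in the members' values was not tested. The Fdft1 signals of the 6 rats of day 21 were between 1.82 and 2.01, and those of the 6 rats of day 28 between 1.96 and 2.58. All day 28 arrays but LP array 7f were above every day 21 array. Fdft1 was 0.38 higher at day 28 (SE 0.08, 95% interval 0.21 to 0.54, fold 1.30), with an adjusted p of 0.0407 in limma and 5 of 6 day 28 arrays above all day 21 arrays.

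That call lay close to the threshold. It held without NP array 6f or LP array 7f of day 28 (adjusted p of 0.0345 and 0.0487, with 4 of 5 and 5 of 5 day 28 arrays above all day 21 arrays). Leaving out any of the other 10 arrays ended it, with differences of 0.34 to 0.39 and adjusted p values between 0.0561 and 0.102, the highest without LP array 4f of day 28. It also ended without a filter on dim probes, with normexp background, with quantile normalization, with the replicate number as a block and with the row of the slide as a covariate, where adjusted p values over all alternatives were between 0.0269 and 0.198 and the difference between 0.27 and 0.39.

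In NP rats alone Fdft1 was at 1.86 ± 0.05 (mean ± SD, n = 3) at day 21 and 2.46 ± 0.15 (n = 3) at day 28, and the arrays of the days did not overlap. The difference was 0.59 (SE 0.11, 95% interval 0.35 to 0.83, fold 1.51), with an adjusted p of 0.0646 in limma and 3 of 3 day 28 arrays above all day 21 arrays. In LP rats it was at 1.96 ± 0.05 (n = 3) and 2.11 ± 0.14 (n = 3), and LP array 7f of day 28 lay below LP array 4a of day 21. The difference in LP rats was 0.16 (SE 0.11), with an adjusted p of 0.663 in limma and 2 of 3 day 28 arrays above all day 21 arrays. Without LP array 4f of day 28 it was 0.09, and without LP array 7f 0.23. Fdft1 was the only member whose groups separated at both days, in opposite directions, although the estimate for Insig1 moved further (0.67, SE 0.49). Of all tested genes 5.59% were higher without overlap at day 21 and 12.3% lower at day 28. The share of genes with both was not computed. For Fdft1, LP minus NP was 0.09 at day 21 and -0.34 at day 28, and limma gave the change of -0.43 (SE 0.15) an adjusted p of 0.9999. Every LP array was above the NP arrays at day 21 (3 of 3) and below them at day 28 (3 of 3). The test of this change called 0 probes in limma (525 before adjustment) and so 0 of 8 members (0% of genes), with 1 of 8, Fdft1, below 0.05 before adjustment (2.27% of genes).

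Among the other members only Srebf2 in NP rats joined Fdft1 in having all day 28 arrays above the day 21 arrays, which made 2 of 8 members (12.2% of genes), with 0 of 8 lower without overlap (6.51% of genes). Srebf2 was 0.27 higher at day 28 in NP rats (SE 0.16), with values of 0.37 to 0.64 at day 21 and 0.71 to 0.94 at day 28. Insig1 had the opposite sign, with means of 2.62 ± 0.46 (SD, n = 3) and 1.87 ± 0.35 (n = 3) in NP rats. NP array 6f of day 28, at 2.22, was above NP array 5a of day 21, at 2.11, so these days overlapped. They differed by -0.75 (SE 0.35), with an adjusted p of 0.401 in limma and 2 of 3 day 28 arrays below all day 21 arrays. In NP rats 0 of 8 members passed the adjusted test (0.257% of genes) and 1 of 8, Fdft1, had an unadjusted p under 0.05 (12.7% of genes).

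In LP rats the days overlapped for all 8 members, where 7.60% of genes were higher and 10.8% lower without overlap. Limma called 0 of 8 members (0% of genes), and 0 of 8 were below 0.05 before adjustment (9.85% of genes). With the diets averaged, Insig1 differed by -0.42 (SE 0.25) and Srebf2 by 0.20 (SE 0.11) between the days. Insig1 was -0.23 without LP array 6f of day 28, and Srebf2 was 0.12 without LP array 4f of day 28. Hmgcs1, Idi1, Fdps, Sqle and Cyp51 all lay between -0.09 and 0.04, and the sign of each turned without certain single arrays, for Hmgcs1 only without NP array 4f. Without NP array 4f of day 28 the differences were 0.01 for Hmgcs1, 0.11 for Sqle and 0.0023 for Fdps. Without LP array 4f of day 28 they were -0.02 for Idi1 and -0.10 for Cyp51, and without NP array 6f -0.04 and -0.02. Without LP array 6f they were 0.05 for Sqle and 0.03 for Fdps, and for Sqle 0.03 without LP array 4a of day 21 and 0.02 without LP array 7f.

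**Figure D2:**
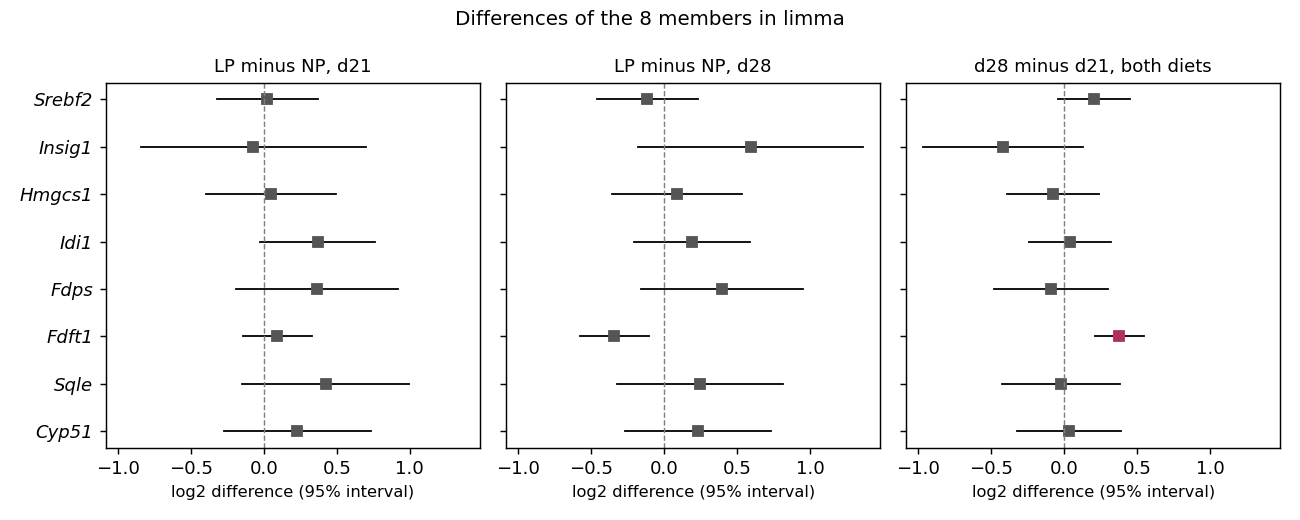
Differences between groups on the log2 scale (horizontal axis) for the 8 genes (vertical axis), as LP minus NP at day 21, LP minus NP at day 28 and day 28 minus day 21 over both diets; squares are limma estimates and lines their 95% intervals. The coloured square is Fdft1 between the days (0.38), with an adjusted p of 0.0407 and 5 of 6 day 28 arrays above all day 21 arrays, and the intervals of the other members reach across 0 in all panels, except Fdft1 at day 28 (-0.58 to -0.10).

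The enzymes other than Fdft1 varied together from rat to rat, and the members as a whole did so less. Over the 12 arrays, the 28 pairs of members had a median r of 0.51, and 21 pairs were above 0. Without LP array 4f and NP array 4f of day 28, the arrays farthest from the median of the members' mean, the median was 0.32 with 23 pairs above 0. After the mean of each group was taken off, the median over the 12 arrays was 0.66 and 23 pairs were above 0, so shared variation lay within groups, days and slides as well. That value includes these arrays 4f and was not computed without them, so it cannot show sharing beyond them. The 10 pairs formed by Hmgcs1, Idi1, Fdps, Sqle and Cyp51 had r between 0.71 and 0.93 (median 0.87) and Spearman's rho between 0.63 and 0.97. Without these arrays 4f, r of these pairs was between 0.32 and 0.89 with a median of 0.75 over 10 arrays. Of the 7 pairs with Fdft1, 1 was above 0 by r, that with Srebf2 (r = 0.68), and the others reached down to -0.60 (Insig1). That count rested on the arrays 4f: by rho 4 of 7 were above 0, and without these arrays 5 of 7 by r (median 0.21). Insig1 had r = -0.74 with Fdft1 without them, but only -0.14 over the 12 arrays after the group means were taken off. With Srebf2 it had r = -0.29, with -0.66 without the arrays 4f of day 28 and 0.06 after the group means were taken off. The arrays share scaling, slide and tissue composition, so these correlations are a description without a test.

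The mean of the 8 members on an array, each centred on its own mean over the 12 arrays, was highest on LP array 4f of day 28 (0.47) and lowest on NP array 4f of day 28 (-0.32). The former was above the mean for 8 of 8 members and the latter for 2 of 8. LP array 4f was the highest of all arrays for 6 of 8 members and NP array 4f the lowest for 5 of 8, although NP array 4f was the highest for Fdft1. LP array 6f of day 28 had 1 of 8 members above its mean, Fdft1. At day 21 the mean was -0.05, -0.18 and -0.05 in NP rats and 0.14, 0.16 and -0.04 in LP rats, so that the spread at day 21 was narrower than at day 28.

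**Figure D3:**
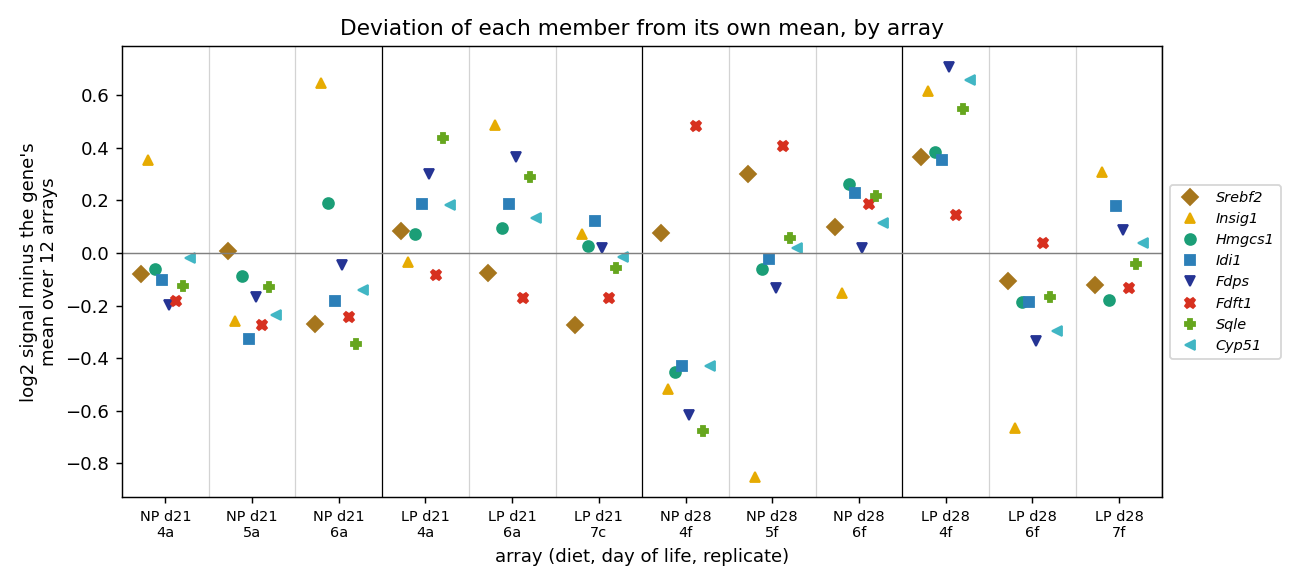
Signal of each of the 8 genes minus its own mean over the 12 arrays, on the log2 scale (vertical axis), for every array by diet, day and replicate (horizontal axis); each symbol is a gene. On LP array 4f of day 28 all 8 genes lie above 0, and on NP array 4f of day 28 all but Fdft1 and Srebf2 lie below it.

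By correlation with that mean over 12 arrays, among 17411 genes well above background on all of them, the 9 genes outside the set with the most similar pattern were Styx (r = 0.96), RGD1560208 (0.94), ENSRNOT00000013371 (0.93), A_64_P086187 (0.92), Mmgt1 (0.92), Tmem110 (0.91), Agpat2 (0.90), Gfm1 (0.89) and FQ215489 (0.89), named as in the array annotation. Agpat2, which encodes an acyltransferase of triglyceride synthesis, was 0.26 higher in LP than in NP rats at day 21 and 0.48 higher at day 28, the latter only 0.15 without LP array 4f; its values overlapped at day 28, and that array also had the highest mean of the members, by which the gene was picked. RGD1560208 is annotated as similar to farnesyl pyrophosphate synthetase, the product of the member Fdps. Its probe and the Fdps probe used above had r = 0.996 over the 12 arrays, and the other Fdps probe had r = 0.981 with the latter. The probe of ENSRNOT00000013371 had r = 0.966 with it and holds an open frame with DDYLD, of the DDXXD form that farnesyl diphosphate synthase shares with related enzymes, so neither gene is taken as independent of Fdps. The probes of Fdps and RGD1560208 are shown because they share bases: the capitals mark the longest run common to them, 23 of 60 bases, and the positions are on rn4, minus strand.
Fdps probe, chr2:181170192-181170336: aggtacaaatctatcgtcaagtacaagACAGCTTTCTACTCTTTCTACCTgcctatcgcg
RGD1560208 probe, chr2:186481884-186481943: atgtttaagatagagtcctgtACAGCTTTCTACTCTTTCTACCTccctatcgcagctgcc
How much RNA of each gene bound either probe was not tested, and the Fdps values above carry that limit.

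Since 5 members varied together, the 250 bases before their starts were read for letters known from sterol-regulated promoters. RefSeq promoters on GRCr8 were at hand for 6 of 8 members, Srebf2, Insig1, Hmgcs1, Idi1, Fdps and Cyp51. On either strand, TCACNCCA, a form of the core of the sterol response element, matched in 1 of 6 members and in 3.24% of all 33465 promoters. The match was in Srebf2, 156 to 149 bases before the start. The E-box TCACNTGA matched in 0 of 6 members and 3.34% of promoters. CCAAT, the box bound by NF-Y, matched in 5 of 6 members, all but Cyp51, and in 34.0% of promoters. GGGCGG, the GC box bound by Sp1, matched in 5 of 6 members, all but Idi1, and in 30.5% of promoters. A match is a stretch of letters and not a measured site. Sites with other letters were not searched for, so a promoter without a match may still hold a sterol response element. Promoters of Srebf2 and of the members that varied together are printed 5′ to 3′ on the strand of the gene, with capitals for TCACNCCA and CCAAT on either strand.
Srebf2 promoter, chr7:115543057-115543306 (+): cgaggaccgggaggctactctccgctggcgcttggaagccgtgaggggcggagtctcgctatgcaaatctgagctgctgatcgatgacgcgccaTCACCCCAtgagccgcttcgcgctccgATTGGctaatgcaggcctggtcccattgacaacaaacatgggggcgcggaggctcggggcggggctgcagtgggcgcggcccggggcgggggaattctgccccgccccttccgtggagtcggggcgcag
Hmgcs1 promoter, chr2:53382054-53382303 (+): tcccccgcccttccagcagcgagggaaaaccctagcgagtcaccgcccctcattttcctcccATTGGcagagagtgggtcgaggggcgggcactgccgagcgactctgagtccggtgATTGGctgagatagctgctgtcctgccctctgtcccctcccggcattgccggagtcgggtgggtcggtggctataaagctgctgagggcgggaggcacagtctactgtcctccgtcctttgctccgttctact
Idi1 promoter, chr17:66547525-66547774 (-): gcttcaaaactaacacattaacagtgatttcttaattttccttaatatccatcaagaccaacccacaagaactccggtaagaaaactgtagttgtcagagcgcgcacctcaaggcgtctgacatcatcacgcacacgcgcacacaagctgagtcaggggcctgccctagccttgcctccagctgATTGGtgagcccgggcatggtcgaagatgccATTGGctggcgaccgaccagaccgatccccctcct
Fdps promoter, chr2:176804817-176805066 (-): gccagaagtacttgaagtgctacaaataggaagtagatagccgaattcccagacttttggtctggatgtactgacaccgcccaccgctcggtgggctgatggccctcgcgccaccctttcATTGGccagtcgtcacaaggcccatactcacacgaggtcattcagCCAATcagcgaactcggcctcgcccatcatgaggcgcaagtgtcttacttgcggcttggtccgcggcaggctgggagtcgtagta
Cyp51 promoter, chr4:30991443-30991692 (+): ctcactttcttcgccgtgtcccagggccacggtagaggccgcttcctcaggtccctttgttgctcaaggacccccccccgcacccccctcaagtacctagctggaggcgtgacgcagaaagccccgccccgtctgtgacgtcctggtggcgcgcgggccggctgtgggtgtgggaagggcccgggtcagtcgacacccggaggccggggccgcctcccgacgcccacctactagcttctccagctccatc

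Other steps of sterol synthesis mostly had mean differences in the same direction as the members. Of 14 listed genes 13 were analysed here, and 12 of 13 had a higher mean in LP rats at day 21 (median 0.23, 52.4% of genes) and 12 of 13 at day 28 (median 0.18, 42.6% of genes). With an array left out the day 21 median was 0.17 to 0.35, the highest without LP array 7c. The day 28 result leaned on the arrays 4f, with 9 of 13 and a median of 0.08 without NP array 4f (40.6% of genes) and 10 of 13 and 0.06 without LP array 4f (43.1% of genes). At day 21, 5 of 13 were higher without overlap (5.59% of genes), Lss, Hsd17b7, Nsdhl, Tm7sf2 and Ebp, which act between squalene epoxide and cholesterol. Lss, the cyclase that makes lanosterol, was 0.42 higher (SE 0.18) and Hsd17b7, a reductase of the later steps, 0.40 higher (SE 0.17). In limma 0 of 13 passed, and these 2 genes were below 0.05 before adjustment (4.34% of genes). Over the 12 arrays the mean of this list and that of the members had r = 0.91. This list was lowest on NP array 4f (-1.62) and highest on LP array 4f (-0.96) of day 28, and r was not computed without them. Between the days 5 of 13 were higher and 8 lower at day 28, with a median of -0.03. That median was -0.09 without LP array 4f of day 28 and turned to 0.02 without LP array 6f. With single arrays left out 5 to 8 of 13 were higher.

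Genes of sterol uptake and transport were listed as well, and their difference from the synthesis genes was not tested. Of 8 listed genes 7 were analysed here, of which 4 were higher in LP rats at day 21 (median 0.04, 52.4% of genes) and 3 at day 28 (median -0.09, 42.6% of genes), where 3 of 7 were lower without overlap (12.3% of genes). The day 21 median turned to -0.02 without NP array 6a. That of day 28 was -0.01 without LP array 4f and -0.23 without LP array 6f. The mean of these genes had r = -0.67 with that of the members, and single genes from -0.87 (Lipa) to 0.52 (Npc2). That mean was highest on NP array 4f of day 28 (0.68, against 0.35 to 0.49 on the other arrays). It was lowest on LP array 4f of day 28. These arrays are also the ends of the members' mean. The other regulators of SREBP had 3 of 5 genes higher at day 21 (median 0.01, 52.4% of genes) and 2 of 5 at day 28 (median -0.12, 42.6% of genes). These medians turned to -0.03 without LP array 6a and to 0.03 without NP array 4f. Esterification, efflux and LXR genes, which dispose of surplus sterol, had 0 of 6 higher at day 21 (median -0.23, 52.4% of genes). At day 28 it was 2 of 6 (median -0.13, 42.6% of genes), and 4 of 6 without NP array 4f (median 0.10). Lower without overlap were 2 of 6 at day 21 (6.03% of genes) and 1 of 6 at day 28 (12.3% of genes). Their mean had r = -0.67 with that of the members and was highest on NP array 4f (0.26). Fatty acid synthesis genes had 8 of 8 higher in LP rats at both days (medians 0.69 and 0.63, 52.4% and 42.6% of genes). Higher without overlap were 5 of 8 at day 21 (5.59% of genes) and 0 of 8 at day 28 (4.42% of genes). Between the days 7 of 8 were higher at day 28 than at day 21 (median 0.94, 53.9% of genes). Leaving out NP array 4f or LP array 4f brought day 28 to 7 of 8, with medians of 0.29 and 0.22, leaving out LP array 6f brought its median to 1.27, and leaving out LP array 6a brought the median of day 21 to 0.41. With the members' mean their mean had r = 0.74, and it was lowest on NP array 4f (1.75) and highest on LP array 4f (4.08). The r of these lists with the members was not computed without the arrays 4f of day 28.

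By the rule of largest differences among the listed genes, Acaca (1.07), Elovl6 (0.90) and Fasn (0.88) led in LP minus NP at day 21, and Scd1 (1.64), Me1 (1.01) and Elovl6 (0.84) at day 28. Between the days the leaders were Me1 (1.31), Elovl6 (1.18) and Fasn (1.02) over both diets, Scd1 (-1.56), Elovl6 (1.21) and Acaca (1.21) in NP rats, and Me1 (1.43), Elovl6 (1.16) and Acly (0.98) in LP rats. For the change of the diet difference they were Scd1 (1.43), Soat1 (0.94) and Abca1 (-0.56). The place of Scd1 rested on NP array 4f of day 28, where its signal was 1.47 against 6.26 and 6.83 on the other NP arrays of the day. Without that array its differences turned to -0.05 between the diets at day 28, 0.13 between the days in NP rats and -0.26 for the change, and that of Abca1 shrank to -0.19. At day 28 the diet difference of Me1 was 0.29 without NP array 4f and 1.75 without LP array 6f, and that of Elovl6 0.28 without LP array 4f and 1.66 without LP array 6f. Between the days in NP rats, Elovl6 was 0.79 without NP array 5f of day 28. Between the days in LP rats, Elovl6 was 0.60 and Acly 0.52 without LP array 4f and 1.98 and 1.59 without LP array 6f, Me1 was 2.17 without the latter, and the change of Soat1 was 0.51 without LP array 7f and 1.45 without LP array 4f. Limma called 0 of the 39 listed genes in any of these contrasts. Before adjustment, p was under 0.05 for 3 of 39 at day 21 (4.34% of genes), 4 at day 28 (7.95% of genes), 11 between the days over both diets (19.0% of genes), 5 in NP rats (12.7% of genes), 2 in LP rats (9.85% of genes) and 0 for the change (2.27% of genes).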

How the data were processed

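Total RNA of 12 lumbar mammary glands was measured on one-colour Agilent arrays, 1 rat each. The deposited scanner files hold intensity per spot, made by the authors with Agilent Feature Extraction 10.7.3.1 by background subtraction and detrending within the array, without normalization between arrays. Another file deposited by the authors holds the same intensity over a constant for each array. From the scanner files, 4259 control spots and 259 to 766 outlier spots per array were dropped, the log2 of the array's 75th percentile (signal 1451 to 2370) was subtracted, and spots of a probe were averaged.

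Limma 3.58.1 was run on 23209 probes, those well above background on 3 or more of the 12 arrays (lmFit and eBayes, two-sided, 1 fit over 4 groups, prior degrees of freedom 1.95) in R 4.3.3 with data.table (version 1.17.8). P values were adjusted by Benjamini-Hochberg over the 23209 probes within a contrast. A gene (20197 tested) is given by its brightest probe. An exact two-sided permutation test of 3 against 3 cannot give a p below 0.1 and was not used. Figures were drawn with matplotlib 3.10.9 in Python 3.11.15. Genes named are all members, the 3 listed pathway genes with the largest difference in each contrast, and the 9 genes most correlated with the members' mean, a list cut short because a further result is not reported here. Other genes were named after their values were seen. The members and lists were chosen with earlier results of these data known. The pipeline was checked on simulated data. The authors' own error model could not be run from the files.

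Alternatives were quantile normalization, normexp background (offset 50), no filter, a filter on all 12 arrays, only the groups of a contrast, robust eBayes with trend, a block for replicate number, diet with number as a random block, a covariate for slide row, the deposited table, the mean of a gene's probes, and leaving out each array. The upper slide row alone, the alternatives for counts without overlap, and leaving out arrays for the listed genes and Agpat2 were added after seeing the data.

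Marker lists were averaged per array. Their LP minus NP medians at day 21 and day 28 were -0.05 and 0.03 for adipocytes (6 genes), -0.07 and -0.26 for brown adipocytes (3 of 4 tested), 0.76 and 0.58 for luminal (6) and 0.94 and 0.88 for basal epithelium (5), 1.08 and 0.65 for milk secretion (3 of 4 tested), -1.79 and -0.74 for skeletal muscle (5), -1.13 and 0.12 for liver (6), -1.94 and -0.53 for leukocytes (6), -0.04 and 0.11 for stroma and endothelium (5), and 0.24 and 0.86 for proliferation (5 of 6 analysed here). The day 21 muscle value leaned on LP array 4a, with a mean of -4.41 against 3.43 and -0.25 on the other LP arrays. The day 28 proliferation value leaned on NP array 4f, with a mean of -2.52 against -0.56 and -0.39 on the other NP arrays. The day 21 leukocyte value includes the low LP array 6a. Of the 6 liver markers only 3 to 6 were well above background on an array. In limma 0 genes of these lists had an adjusted p under 0.05 at either day, and 2 (1 of liver, 1 of milk secretion, both at day 21) an unadjusted p under 0.05.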

Additional observations from a re-analysis of the deposited data

Results flagged for a closer look

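A member or listed gene was flagged if the diets separated without overlap at both days in opposite directions. A change between the days that passed limma's adjusted test was flagged too. The difference between the diets pointed in opposite directions on the 2 days for Fdft1, the gene of squalene synthase. It was flagged by the separation, which is therefore no further support, and the share of all genes with that pattern was not computed. Every LP array was above the NP arrays at day 21 (3 of 3) and below them at day 28 (3 of 3). The LP minus NP difference moved by -0.43 on the log2 scale between the days (SE 0.15), with an adjusted p of 0.9999 in limma and an unadjusted p under 0.05, so the change did not pass the test over all probes. It was between -0.52 and -0.36 when single arrays were left out, but -0.20 with limma's normexp background. The gap between the groups was only 0.013 at day 21 and 0.04 at day 28. Groups of 3 arrays were not tested for outlying values.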

How the results depend on the processing

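Between the diets 0 probes were called at either day under every alternative (1011 at day 21 and 1873 at day 28 with an unadjusted p under 0.05 in limma), and 0 for the change between days. Between the days the counts depended on the setting. The 421 probes called between the days over both diets became 271 with normexp background, 217 without a filter and 209 with the replicate block, and 99 to 398 with an array left out. Of the called probes 57.7% were higher at day 28, against 75.6% with normexp background. In NP rats 58 probes became 0 without a filter, 0 with only the groups of the contrast, 0 with the replicate block, 36 with the slide row, 88 with the filter on all 12 arrays, 91 with trend and robust estimation, 102 in the deposited table, and 0 to 31 with an array left out. Normexp background moved the median of all probes there to 0.10. In LP rats 0 probes (2346 at an unadjusted p under 0.05 in limma) became 6 with normexp background, 1 with only the groups of the contrast, and 0 to 4 with an array left out. Members higher in LP rats without overlap at day 21 went from 5 to 3 in the deposited table (4.59% of genes), and members lower at day 28 from 1 to 0 with normexp background (7.21% of genes). Leaving out an array of day 28 gave 0 to 2 higher (6.97% to 11.7% of genes) and 1 to 2 lower (15.4% to 23% of genes). For each of these counts the cause was not tested.

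Directions turned for few members outside the left-out arrays. LP minus NP became 0.088 for Insig1 at day 21 with the slide row, and for Srebf2 at day 28 0.039 with the replicate block, 0.13 with the slide row and 0.20 on the upper row alone. Day 28 minus day 21 became 0.023 for Sqle over both diets and 0.013 for Idi1 in LP rats, both with normexp background. The change of the diet difference became -0.0074 for Hmgcs1 with normexp background, -0.037 for Fdps with the mean of its probes, and for Cyp51 -0.0031 with quantile normalization, -0.053 with normexp background and -0.0014 in the deposited table. The cause was not tested.

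Leaving out single arrays turned the sign in 49 of the 384 values of single members whose groups held the array, in these ranges. LP minus NP at day 21 was -0.33 to 0.13 for Insig1 and -0.061 to 0.12 for Srebf2. At day 28 it was -0.10 to 0.26 for Hmgcs1, -0.024 to 0.42 for Sqle and -0.030 to 0.45 for Cyp51. Day 28 minus day 21 over both diets was -0.17 to 0.014 for Hmgcs1, -0.13 to 0.11 for Sqle, -0.036 to 0.13 for Idi1, -0.23 to 0.031 for Fdps and -0.10 to 0.14 for Cyp51. In NP rats it was -0.27 to 0.087 for Hmgcs1, -0.11 to 0.34 for Sqle, -0.022 to 0.31 for Idi1, -0.24 to 0.080 for Fdps and -0.074 to 0.20 for Cyp51. In LP rats it was -0.25 to 0.037 for Hmgcs1, -0.33 to 0.030 for Sqle, -0.35 to 0.29 for Insig1, -0.17 to 0.10 for Idi1, -0.35 to 0.17 for Fdps, -0.23 to 0.25 for Cyp51 and -0.026 to 0.22 for Srebf2. The change of the diet difference was -0.15 to 0.21 for Hmgcs1, -0.25 to 0.27 for Fdps and -0.26 to 0.22 for Cyp51.

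Whether replicate numbers pair samples is not stated. Arrays of the same number had r of 0.09 and 0.13 between the diets at day 21 and 0.10 and 0.09 at day 28, and between the days 0.03, 0.17 and 0.14 in NP rats (4, 5, 6) and 0.38, 0.21 and -0.06 in LP rats (4, 6, 7). Diet with number as a random block had a correlation of 0.0266, and the Fdft1 difference between the days then had an adjusted p of 0.0364 in limma (0.38, 5 of 6 arrays higher). With the number as a block the Fdft1 difference between the days stayed at 0.38, with an adjusted p of 0.0763 in limma (0.0269 to 0.198 over all alternatives, 5 of 6 day 28 arrays above all day 21 arrays). In NP rats Fdft1 passed with the filter on all 12 arrays and with trend and robust estimation (adjusted p of 0.0466 and 0.0382 in limma, difference 0.59, 3 of 3 arrays higher). With normexp background the difference was 0.38 with an adjusted p of 0.321 in limma, the highest of the alternatives, and with arrays left out the adjusted p reached 0.229 (difference 0.53 to 0.68, all day 28 arrays higher). The median difference over the members at day 28 moved from 0.21 to 0.57 on the upper row alone, by more than the spread between arrays (0.23). That row holds a single LP array, 4f, the highest of all arrays for 6 of 8 members, so this value gives no support to a difference between the diets. Under the other alternatives the medians moved by less than 0.23, the most with the slide row as a covariate (0.38 at day 21 and 0.43 at day 28). No NP array lay in the lower row, so between the diets that covariate rests on LP arrays 4a and 4f against the other LP arrays, day 21 borrows from array 4f, and its values (at day 21 also 0.27 for Srebf2 and 0.24 for Hmgcs1) are no adjusted differences. The cause was not tested. All members were well above background on all 12 arrays.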
